A study of Mus musculus with 13 samples.

Results

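H3K27ac, the acetylation of lysine 27 on histone H3 that marks active promoters and enhancers, was compared between macrophages that had received LPS with a late addition of IL-10 and untreated macrophages. The late IL-10 cells had LPS at 1 ng/mL for 195 min, with IL-10 present for the last 30 min only; the labels give no dose of IL-10 for this group. The untreated cells received neither agent. Each group had 3 libraries, 1 from each of 3 macrophage pools, so the groups compared hold 6 of the 13 libraries of the series. Further libraries came from LPS alone for 195 min and from LPS with IL-10 (1 ng/mL) for the whole 195 min, 3 each. They entered the same fit, and so its estimate of the spread, and are compared with other groups where stated. An input library was not used here. All cells were bone marrow-derived macrophages, grown for 5 days in M-CSF conditioned medium from mice of strain 129S6/SvEvTac with the genotype IL10-/-RAG2-/-. Every group therefore lacks IL-10 of its own, and the donors lack mature T and B cells. All 40691 consensus regions of the series were members, and 36621 of them passed the filter on low values and were tested.

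LPS, a component of the outer membrane of Gram-negative bacteria, is sensed by Tlr4 and, through the adaptors Myd88 and Ticam1, activates NF-kB, AP-1 and interferon regulatory factors. These act on enhancers and promoters opened earlier by lineage factors such as Spi1 and C/EBP proteins. IL-10 signals through Il10ra, Il10rb and Jak1 to Stat3 and restrains inflammatory gene expression in macrophages. The comparison describes an LPS-activated macrophage shortly after IL-10 reached it, set against a resting one.

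Values are the deposited signal, in which each library's reads are scaled by 1 factor, and genes were scored by adding up their assigned regions. Differences are log2 differences of value + 1, late IL-10 minus untreated, with the replicate number as a block, and a call means a Benjamini-Hochberg adjusted p under 0.05 from limma. The regions of the late IL-10 libraries held 6635223, 7315345 and 11083204 reads in replicates 1, 2 and 3, and those of the untreated libraries 12698228, 7208540 and 26922552 reads. In both groups 1 read is the lowest value a region takes. A region with no more than 3 reads, or a gene with no more than 3 reads per region on average, is said to lie at the floor; it is not shown to be free of H3K27ac. For a group whose libraries all lay at the floor, folds are written as "at least", taking 3 reads in each region and library as the lower level; they describe the deposited values only, and the fitted log2 difference beside one is not a bound. The late IL-10 library of replicate 3 stood apart at the regions that were higher with late IL-10: it was the lowest of its group in 6967 of them, or 75.3%. Low values in replicate 3 were not confined to this group. Summed over interferon response genes, replicates 1, 2 and 3 had 118542, 139670 and 65109 with LPS alone. With continuous IL-10 they had 52068, 36136 and 23473. Glycolysis and hypoxia genes went the other way with LPS alone, with 28467, 35085 and 39928. Median log2 differences in pools 1, 2 and 3 were 3.53, 3.43 and 2.91 over the higher regions. Over the lower regions they were -3.42, -3.01 and -2.42. The medians were 1.92, 2.08 and 1.06 over genes called higher, and -1.78, -1.54 and -1.46 over genes called lower. These regions and genes were called from the same 3 pools, so the shared sign of the medians is no separate evidence. In chromatin from a mixed culture, fewer cells of a type and less H3K27ac per cell cannot be told apart.

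H3K27ac differed at many regions in both directions. With late IL-10, 9255 regions were higher than in untreated cells (25.3% of those tested) and 9526 were lower (26% of those tested). The median log2 difference was 3.22 among the higher regions and -3.02 among the lower ones, or 3.29 and -2.87 when bounds replace the fitted values of floor regions. The median over all tested regions was -0.11. The 3 late IL-10 values all lay above or all below the 3 untreated values in 81.1% of the higher and 87.1% of the lower regions, against 22.9% and 25.9% of all tested regions. Whichever of the 6 libraries was left out, 6309 higher and 6312 lower regions kept their call. In 3695 of the higher regions all 3 untreated libraries lay at the floor, and in 2488 of the lower regions all 3 late IL-10 libraries did. Summed over genes, 2800 of 13482 were higher (20.8%) and 3557 were lower (26.4%), with a median over all genes of -0.21; the groups did not overlap in 18.8% of all genes with late IL-10 above and in 25% with it below. Side by side, LPS alone against the same untreated libraries gave 8840 higher (24.1%) and 9128 lower regions (24.9%), and continuous IL-10 gave 6226 (17%) and 6903 (18.8%).

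By width, broad regions were called most often in both directions. By position, regions far from genes had the largest share higher and the smallest share lower. Among regions more than 100 kb from any protein-coding gene, 39.1% were higher and 20.0% lower with late IL-10. Among regions within 1 kb of a gene's start, 17.1% were higher and 23.7% lower. Regions inside genes had 26.02% higher and 27.3% lower, and other regions within 100 kb of a gene had 30.8% and 28.0%. Of regions of 10 kb or more, 41.7% were higher and 32.4% lower, while of those under 2 kb only 15.6% and 16.8% were. Broad regions hold more reads (a median value of 786 with late IL-10 and 711 in untreated cells, against 11.5 and 12.4 in regions under 2 kb), and how far this sets the shares called was not tested.

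**Figure D1:**
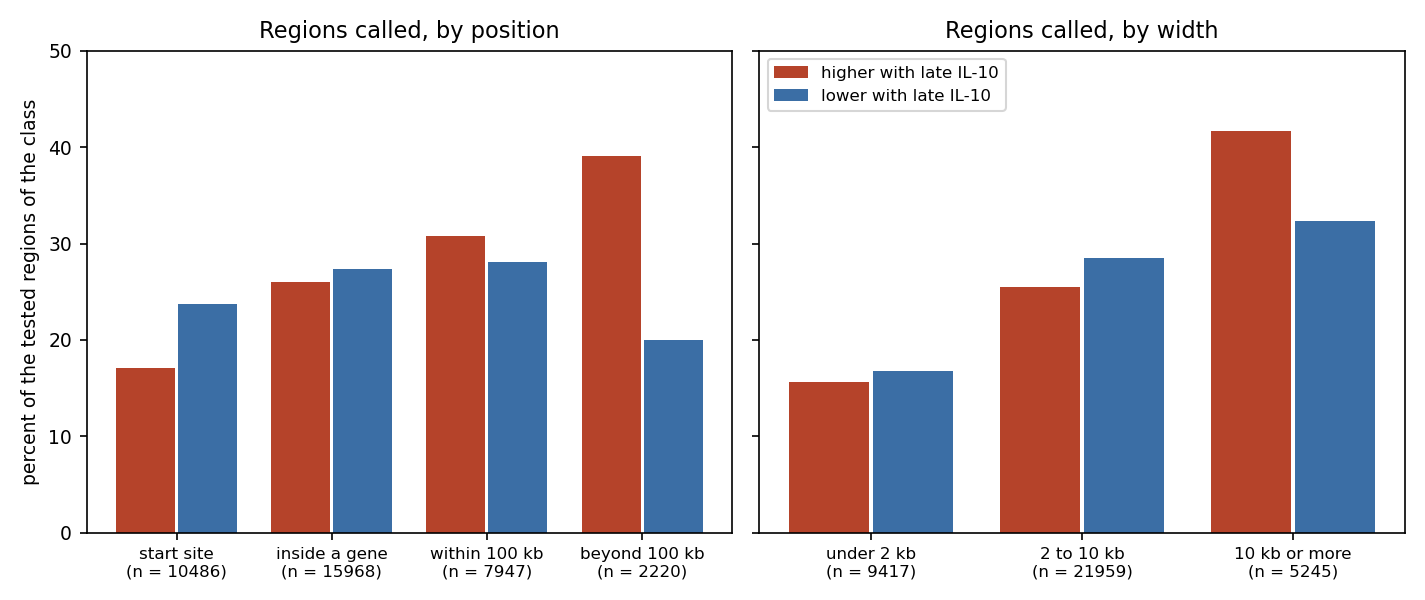
Percent of the tested regions of each class that were called higher (red) or lower (blue) with late IL-10 than in untreated cells, by position relative to protein-coding genes (left) and by width (right); n is the number of regions of the class. The share higher climbs from 17.1% near gene starts to 39.1% beyond 100 kb and from 15.6% under 2 kb to 41.7% at 10 kb or more.

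At the regions with the largest rises, a broad domain stood in the LPS and late IL-10 libraries where the untreated libraries were all at the floor. Coordinates are of mm10. The region inside Rcl1, an RNA terminal phosphate cyclase-like gene, at chr19:29136431-29191834 had values of 9929, 13208 and 3861 with late IL-10, against 0.707, 1.26 and 0.419 in untreated cells, at least 3771-fold higher (log2 difference 12.14, SE 0.33, adjusted p = 1.17e-11). All late IL-10 values lay above all untreated ones, which the rule for naming regions required. This region was also higher with late IL-10 than with LPS alone, by 1.34 (adjusted p = 0.0197), a call made at 6.17% of all regions. The region at chr16:84696250-84722216 overlaps Mrpl39, a mitochondrial ribosomal protein gene, and also holds the hairpin of Mir155, a microRNA induced in activated macrophages. It had 7157, 9750 and 2561 with late IL-10, against 0.707, 1.26 and 0.419 in untreated cells, at least 2719-fold higher. Regions at Alpk2 (an alpha-kinase gene), Atp8a1 and Atp8b4 (phospholipid flippase genes), Adora2a (an adenosine receptor gene) and St3gal3 (a sialyltransferase gene) were at least 2972-, 1737-, 1354-, 1521- and 1049-fold higher. An intragenic region of Fosl2, which encodes an AP-1 subunit, was at least 930-fold higher than in untreated cells and higher than with LPS alone by 1.26 (adjusted p = 0.013).

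Large falls were found too, with smaller bounds than the largest rises. A region over the start of Cadm1, a cell adhesion molecule gene, at chr9:47768136-47821315 lay at 1.76, 1.79 and 0.886 with late IL-10, against 2896, 3177 and 2102 in untreated cells, at least 614-fold lower (log2 difference -10.10, SE 0.87, adjusted p = 8.60e-07). The whole late IL-10 group was at the floor there. Regions in Mad1l1 (a spindle checkpoint gene), Slco2b1 (an organic anion transporter gene), Adam22, Dusp27 and Rnf150 were at least 414-, 421-, 374-, 362- and 344-fold lower. Other regions fell less far but with little spread: at Myom1, a sarcomere M-band gene, the values were 232, 237 and 401 with late IL-10, against 3521, 3743 and 3665 in untreated cells. Among the regions named as lower, those at Cd2 and Fnbp1 were also lower than with LPS alone, as were 1.92% of all regions. The region over the start of Cd2, an adhesion receptor gene, lay at 1.76, 1.79 and 0.886 with late IL-10, 84.6, 35.3 and 55.6 with LPS alone, and 441, 528 and 847 in untreated cells. With late IL-10 it lay at the floor, at least 136-fold lower than in untreated cells and at least 13.2-fold lower than with LPS alone (log2 difference -4.52, adjusted p = 1.85e-04). At Fnbp1, a membrane-bending protein gene, the difference from LPS alone was -1.71 (adjusted p = 7.48e-04).

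The promoters of 4 genes picked for display, all higher with late IL-10, show the motif letters of the factors that LPS is known to activate, and each lies inside a region called higher. They are RefSeq sequences of GRCm38.p6, the same build as mm10, from 250 bases before to 50 after the gene's start, written 5′ to 3′ on the gene's strand. Capitals mark every match, on either strand, to the interferon-stimulated response element (ISRE, searched as GAAA, any 2 bases, GAAA), NF-kB (GGG, any 2 bases, TTTCC), the Stat-binding GAS element (TTCCNGGAA), AP-1 (TGANTCA), C/EBP (TTGCNNCAA), the cyclic AMP response element (CRE, TGAC then GTCA) and PU.1 (GAGG then AAGT).
Cxcl10, chr5:92348840-92349139, minus strand: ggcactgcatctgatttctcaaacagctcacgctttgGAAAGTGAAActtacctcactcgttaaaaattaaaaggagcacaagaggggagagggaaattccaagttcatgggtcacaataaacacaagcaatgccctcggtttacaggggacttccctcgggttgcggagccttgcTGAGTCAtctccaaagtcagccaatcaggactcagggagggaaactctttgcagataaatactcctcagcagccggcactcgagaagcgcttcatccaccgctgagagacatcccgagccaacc
Ifit1, chr19:34640639-34640938, plus strand: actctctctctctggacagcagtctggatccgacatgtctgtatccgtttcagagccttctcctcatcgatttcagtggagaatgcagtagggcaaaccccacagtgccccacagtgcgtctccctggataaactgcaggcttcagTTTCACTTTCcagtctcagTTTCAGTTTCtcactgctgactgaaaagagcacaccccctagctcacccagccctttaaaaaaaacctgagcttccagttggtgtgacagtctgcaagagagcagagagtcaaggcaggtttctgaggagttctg
Il6, chr5:30012864-30013163, plus strand: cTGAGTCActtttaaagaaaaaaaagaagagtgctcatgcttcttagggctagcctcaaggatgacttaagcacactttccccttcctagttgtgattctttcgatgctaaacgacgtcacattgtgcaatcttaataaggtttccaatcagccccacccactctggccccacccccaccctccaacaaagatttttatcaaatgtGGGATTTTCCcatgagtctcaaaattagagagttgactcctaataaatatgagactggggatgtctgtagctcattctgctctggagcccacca
Nfkbia, chr12:55492598-55492897, minus strand: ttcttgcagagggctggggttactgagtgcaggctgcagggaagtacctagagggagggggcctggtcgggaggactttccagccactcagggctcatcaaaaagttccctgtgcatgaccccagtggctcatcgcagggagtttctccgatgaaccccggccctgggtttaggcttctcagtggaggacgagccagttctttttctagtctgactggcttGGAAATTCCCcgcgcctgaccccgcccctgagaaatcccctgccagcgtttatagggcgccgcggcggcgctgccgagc
Cxcl10 and Ifit1 carry ISRE letters, at 2 places in Ifit1, and Il6 and Nfkbia carry NF-kB letters; Cxcl10 and Il6 also carry AP-1 letters. Other named genes do not share this: the promoter windows of Tnf, Il1b, Il12b, Ptgs2 and Socs3 hold none of the motifs searched. Those windows also lie in regions called higher. Of 21263 promoters in the table, 11261 lay in a tested region. ISRE letters were in 6.52% of the 1795 promoters in regions higher with late IL-10, in 2.42% of the 2519 in regions lower, in 2.92% of the 6947 in regions not called, and in 3.35% of all promoters. NF-kB letters were in 2.84%, 1.23%, 1.68% and 1.60% of the same sets, and GAS letters in 1.84%, 1.03%, 1.37% and 1.17%. The letters TGANTCA of AP-1 were in 7.30%, 5.48%, 4.25% and 6.99%. C/EBP letters were in 2.23%, 1.79%, 1.28% and 1.79%, CRE letters in 3.29%, 2.70%, 3.60% and 2.23%, and PU.1 letters in 4.01%, 3.65%, 3.27% and 3.13%. These shares are descriptions, and a match is not a bound site.

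Inflammatory cytokine genes gained H3K27ac almost throughout. Of 22 tested, 20 were higher with late IL-10 than in untreated cells and 1, Osm, was lower; the list's median log2 difference was 2.89. Over all genes tested, 20.8% were higher and 26.4% lower, and the counts of each list are to be read against these shares. Il6, the gene of a fever and acute-phase cytokine, had 7412, 9268 and 534 with late IL-10, against 4.95, 6.30 and 2.09 in untreated cells. Untreated cells lay at the floor, and late IL-10 was at least 481-fold higher (log2 difference 9.34, adjusted p = 2.34e-06), though the late IL-10 library of replicate 3 was far below the other two. Tnf, the tumour necrosis factor gene, had 9709, 9310 and 9894 with late IL-10, against 4191, 3736 and 5344 in untreated cells, a log2 difference of 1.14 (SE 0.17, adjusted p = 6.00e-05). The groups did not overlap at Tnf; its 1 region is broad and also covers Lta, Ltb and Lst1, so these genes are not separate observations. Il1b, the interleukin-1 beta gene, had 10466, 14676 and 4627 with late IL-10, against 680, 1417 and 1000 in untreated cells, 3.17 higher (SE 0.40, adjusted p = 5.83e-05). Both subunits of IL-12 were higher. Il12a differed by 6.47 (SE 0.49, adjusted p = 5.79e-08). Il12b had 1109, 928 and 93.0 with late IL-10, against 213, 132 and 13.8 in untreated cells. These groups overlap, and the difference of 2.61 (SE 0.73, adjusted p = 0.0113) was not called without late IL-10 replicate 2 (adjusted p = 0.0593), without untreated replicate 3 (adjusted p = 0.0605) or with no replicate block (adjusted p = 0.132). Csf2 (the GM-CSF gene) and Tnfsf9 (the 4-1BB ligand gene) were higher by 6.53 and 3.63, and Il33, at the floor in untreated cells, was at least 94.5-fold higher. Osm, the oncostatin M gene, was lower by -1.03 (adjusted p = 0.00584) but not called without late IL-10 replicate 3 (adjusted p = 0.0527).

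Against LPS alone, the late IL-10 libraries held less H3K27ac at Tnf, and Il33 and Lif were the other cytokine genes where a difference was called. Over all genes, 907 were higher (6.73%) and 406 lower (3.01%) with late IL-10 than with LPS alone; of the 22 cytokine genes, 1 was higher and 3 were lower. Those lower were Lif, by -1.80, and Tnf and Lta, which share their region and so count once. Tnf had 9709, 9310 and 9894 with late IL-10, against 14928, 17258 and 15555 with LPS alone, a log2 difference of -0.72 (95% interval -1.09 to -0.35, adjusted p = 0.0137). Il33 was higher than with LPS alone, by 2.28 (adjusted p = 0.0161). For Il6 the difference from LPS alone was -0.20 with a 95% interval from -1.92 to 1.52, and for Il1b 0.17 with an interval from -0.70 to 1.05, so neither sign is shown. For Il12b the difference was -1.75 (interval -3.34 to -0.15), and it did not pass after adjustment over all genes (adjusted p = 0.187).

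**Figure D2:**
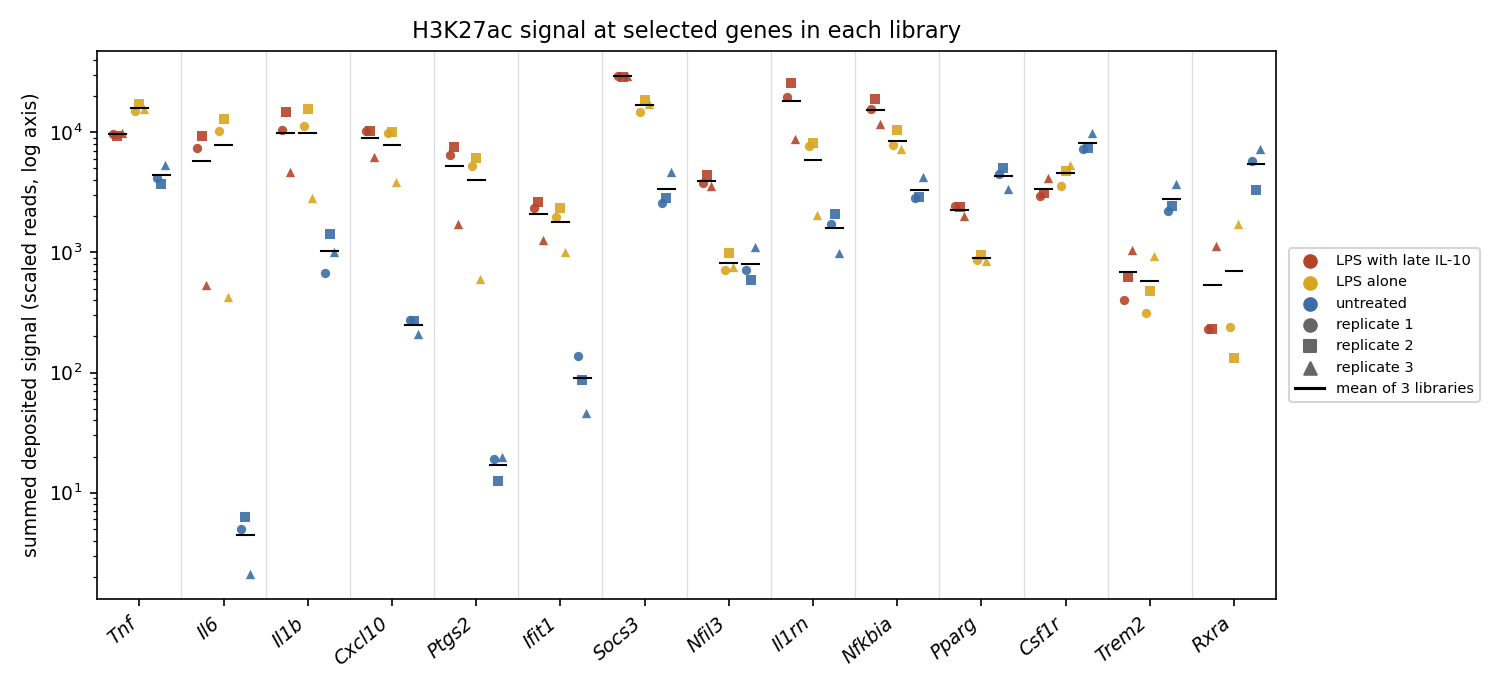
Summed deposited signal (log axis) at 14 genes in every library of LPS with late IL-10 (red), LPS alone (yellow) and untreated cells (blue); symbols give the replicate number and black lines the mean of 3 libraries. Il6 runs from 534 to 9268 with late IL-10, against 2.09 to 6.30 in untreated cells, while Rxra lies between 229 and 1131 with late IL-10, against 3289 to 7283 in untreated cells.

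Chemokine genes, whose products recruit leukocytes, went the same way with exceptions. Of 17 tested, 11 were higher and 2 lower, with a median of 1.68. Cxcl10, an interferon-inducible attractant of T cells with its promoter printed above, had 10264, 10202 and 6167 with late IL-10, against 271, 270 and 209 in untreated cells, 5.12 higher (SE 0.26, adjusted p = 6.02e-10). The groups did not overlap. Ccl5, a T cell and monocyte attractant gene, was higher by 4.17 (SE 0.26), Cxcl9 by 4.90 (SE 0.39) and Ccl2, the main monocyte attractant gene, by 2.55 (SE 0.27). Ccl17 ran the other way, with 3.52, 3.58 and 1.77 with late IL-10, against 45.2, 71.9 and 44.8 in untreated cells. The late IL-10 libraries lay at the floor there, at least 6.08-fold lower (fitted log2 difference -3.80, SE 0.77, adjusted p = 7.71e-04). With LPS alone Ccl17 held 43.3, 72.3 and 33.4, and late IL-10 was at least 5.59-fold lower than that (fitted log2 difference -3.64, adjusted p = 0.00591). Cx3cl1 was lower by -2.52 (adjusted p = 0.00808), a call lost without late IL-10 replicate 1 (adjusted p = 0.0558), without untreated replicate 1 (adjusted p = 0.0818) and with no replicate block (adjusted p = 0.136).

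Among inflammatory effector genes (enzymes, receptors and co-stimulatory molecules), 24 of 30 were higher and 2, Cd80 and Plau, were lower; the median of 3.66 was the highest of the lists. Ptgs2, the inducible cyclooxygenase gene, had 6410, 7561 and 1738 with late IL-10, against 19.1, 12.6 and 19.7 in untreated cells, 7.94 higher (SE 0.60, adjusted p = 5.41e-06). Edn1, the endothelin-1 gene, had 13633, 15070 and 4756 with late IL-10, against 7.78, 25.2 and 4.61 in untreated cells, at least 425-fold higher and also higher than with LPS alone, by 1.07 (adjusted p = 0.0276). Nos2, the inducible nitric oxide synthase gene, had 2672, 2600 and 843 with late IL-10, against 136, 102 and 146 in untreated cells, a log2 difference of 3.82 (SE 0.35, adjusted p = 5.25e-07). One of its regions, inside the gene at chr11:78945275-78956828, averaged 553 with late IL-10, 2.03 with LPS alone and 0.795 in untreated cells. LPS alone and untreated libraries lay at the floor there, and late IL-10 was at least 135-fold higher than LPS alone (fitted log2 difference 7.52, adjusted p = 1.32e-05). Acod1, whose enzyme makes itaconate, was higher by 3.54, Cd40, a co-stimulatory receptor gene, by 4.30 and Adora2a by 7.87. Marco, a scavenger receptor gene, had 1300, 1700 and 1491 with late IL-10, against 193, 103 and 62.0 in untreated cells; it was higher by 3.78 (SE 0.29), and with LPS alone it stood higher still, late IL-10 lying below LPS alone by -1.19 (adjusted p = 0.0145).

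Of 16 genes of the LPS receptor and its adaptors, 9 were higher and 1, Ticam2, was lower, with a median of 0.55. The count rests on single libraries: 5 were higher without late IL-10 replicate 1 and 5 without replicate 2, 4 without untreated replicate 1 and 4 without replicate 2, and 4 with no replicate block. Tirap, an adaptor gene, had 780, 1003 and 534 with late IL-10, against 134, 164 and 309 in untreated cells, 1.98 higher (SE 0.35, adjusted p = 2.34e-04). Ripk2, a kinase gene of NOD signalling, was higher by 1.68. Tlr2, the lipoprotein receptor gene, was higher by 0.92 in its sum, with 1 region called higher and 2 called lower. Ly96, which encodes the LPS-binding partner of Tlr4, was higher by 1.69 (adjusted p = 0.00195), but not with no replicate block (adjusted p = 0.0528). Tlr4 itself differed from untreated cells by 0.45 (adjusted p = 0.209) and was higher than with LPS alone by 1.35 (adjusted p = 0.00562). Ticam2 was lower by -0.88 (adjusted p = 0.00613), a call lost without late IL-10 replicate 1 (adjusted p = 0.0529).

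NF-kB genes and their feedback inhibitors were mostly higher: 20 of 24, with 1, Nfkbid, lower and a median of 1.41. Nfkbia, the gene of the inhibitor that NF-kB itself induces, had 15526, 18970 and 11723 with late IL-10, against 2857, 2868 and 4218 in untreated cells, a log2 difference of 2.21 (SE 0.23, adjusted p = 1.26e-06). Its promoter is printed above, and late IL-10 lay above LPS alone by 0.85 (adjusted p = 0.025). Tnfaip3, the A20 gene, was higher than in untreated cells by 3.70 (SE 0.26) and higher than with LPS alone by 0.87 (adjusted p = 0.0451). Traf2 was higher by 2.26 and Birc3 by 2.00. Bcl3, an atypical inhibitor family gene that Stat3 also induces, had 6833, 6912 and 6828 with late IL-10, against 2969, 2739 and 3939 in untreated cells, 1.11 higher (SE 0.19, adjusted p = 2.16e-04). With LPS alone Bcl3 held 1539, 1633 and 2628, and late IL-10 was higher by 1.87 (95% interval 1.46 to 2.28, adjusted p = 1.23e-05). Nfkbid was lower by -0.62 (adjusted p = 0.016) but not called without late IL-10 replicate 3 (adjusted p = 0.0756), without untreated replicate 3 (adjusted p = 0.0742) and with no replicate block (adjusted p = 0.0573).

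The interferon response list moved as a whole. All 39 genes tested were higher with late IL-10 than in untreated cells, under each left-out library and with no replicate block, with a median of 2.85 and a range from 0.88 to 7.54. Ifit1, an antiviral RNA-binding protein gene whose promoter is printed above, had 2360, 2627 and 1265 with late IL-10, against 139, 87.0 and 46.1 in untreated cells, 4.58 higher (SE 0.29, adjusted p = 7.51e-09). The groups did not overlap. Rsad2, the viperin gene, was higher by 4.18 (SE 0.23), Gbp7, a guanylate-binding protein gene, by 4.24 (SE 0.25) and Irf7, an interferon-inducible transcription factor gene, by 3.17 (SE 0.25). Cmpk2 was higher by 4.22 but shares regions with Rsad2. Between late IL-10 and LPS alone, limma called none of the 39 in either direction, and before adjustment 1 gene passed p under 0.05, as lower. The interval of the difference was -0.36 to 0.86 for Ifit1, -0.90 to 0.08 for Rsad2 and -0.65 to 0.43 for Irf7, so differences inside these bounds could not be resolved. Against continuous IL-10, where 9.69% of all genes were higher, the late IL-10 values were higher at each of these genes, by 2.14 at Ifit1 (adjusted p = 2.38e-04), 3.31 at Rsad2 (adjusted p = 7.30e-07) and 2.21 at Irf7 (adjusted p = 7.36e-05). Ifnb1, the interferon beta gene itself, was higher than in untreated cells by only 0.76 (adjusted p = 0.0463), and this call was kept without 1 of the 6 libraries only, untreated replicate 1. Its 4 regions were not alike: the one over its start at chr4:88517663-88525648 averaged 250 with late IL-10, against 14.9 in untreated cells, 5.55 higher (adjusted p = 8.77e-05), while one at chr4:88501688-88504993 averaged 1.48 with late IL-10, against 67.5 in untreated cells, at least 15.2-fold lower (fitted log2 difference -4.67, adjusted p = 4.08e-04).

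**Figure D3:**
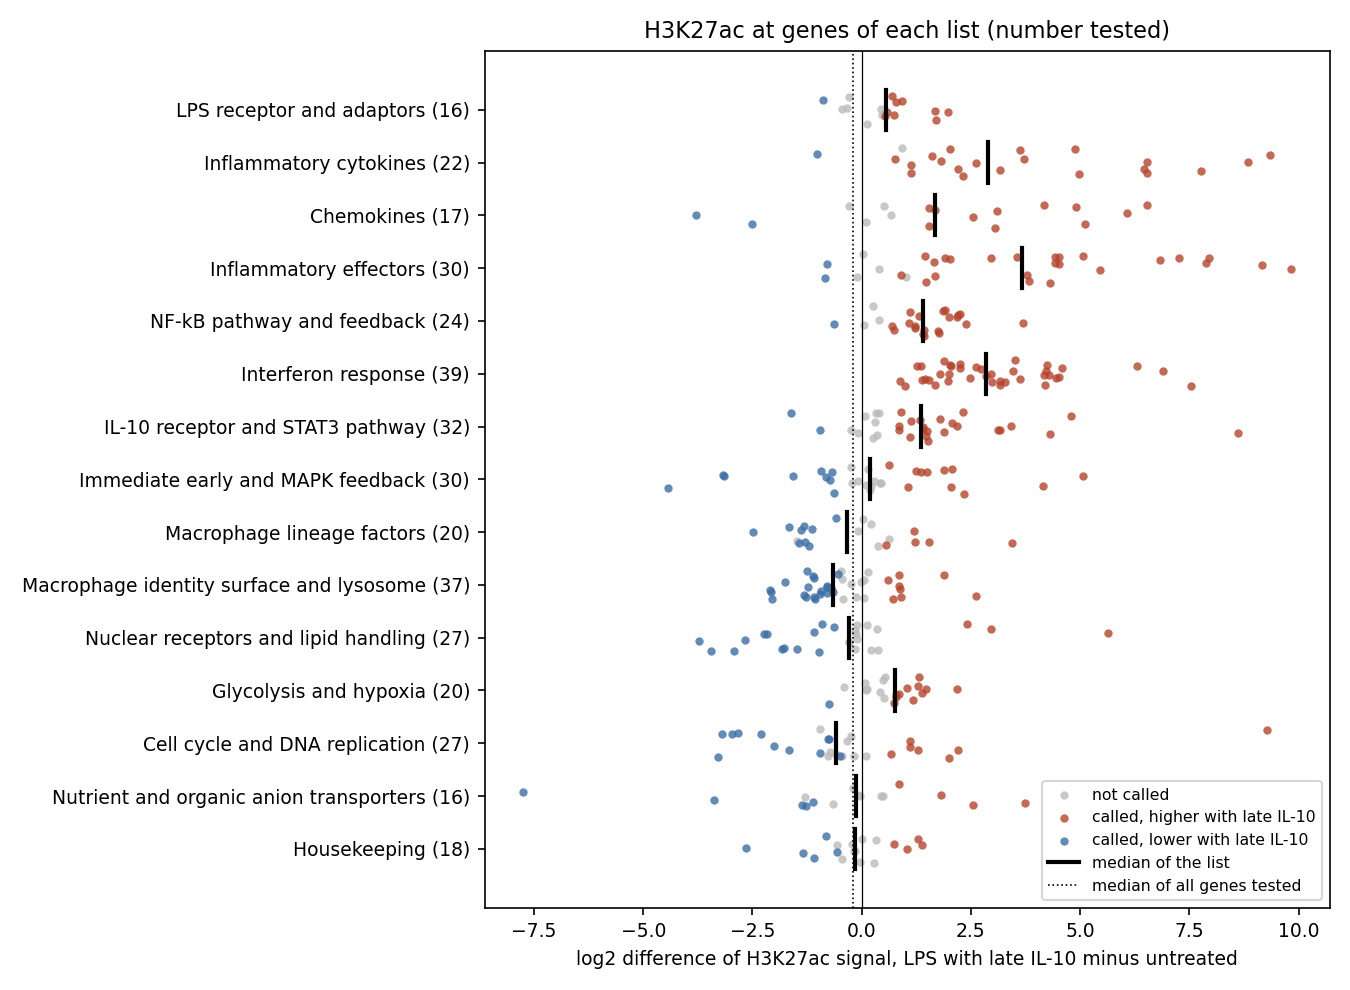
Log2 difference of H3K27ac signal, LPS with late IL-10 minus untreated, for every tested gene of 15 lists (1 point a gene), with genes called higher in red, called lower in blue and not called in grey. Black bars are list medians, from 3.66 for inflammatory effectors to -0.65 for macrophage identity, and the dotted line is the median of all genes tested at -0.21; every interferon response gene lies to the right of 0.

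Genes of the IL-10 receptor and the STAT3 pathway were often higher with late IL-10 than in untreated cells, and often higher than with LPS alone. Of 32 tested, 22 were higher and 2, Cd163 and Il7r, were lower than in untreated cells, with a median of 1.37; against LPS alone 16 were higher and 1, Tyk2, was lower, set beside 6.73% and 3.01% of all genes. LPS alone gave 12 higher and 6 lower against the same untreated libraries, beside 20.1% and 23.4% of all genes. The list was drawn up with results of these data known, and its counts are not independent evidence. Neutrophil markers also differed from LPS alone, with 4 higher and 1 lower of 7, and their part in these counts was not tested. Socs3, the gene of a feedback inhibitor that Stat3 induces, had 29280, 28807 and 29545 with late IL-10, 14682, 18663 and 17100 with LPS alone, and 2579, 2812 and 4669 in untreated cells. The late IL-10 values exceeded all others, by 3.17 against untreated cells (SE 0.19, adjusted p = 4.46e-09) and by 0.80 against LPS alone (interval 0.40 to 1.21, adjusted p = 0.0126). Nfil3, a transcription factor gene induced by IL-10, had 3790, 4379 and 3552 with late IL-10, 720, 983 and 760 with LPS alone, and 717, 589 and 1100 in untreated cells. LPS alone and untreated values overlap at Nfil3, and late IL-10 was above both, by 2.26 (adjusted p = 1.23e-05) and 2.33 (adjusted p = 1.02e-06).

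The same pattern of a rise over both groups was found at Etv3, the gene of a transcriptional repressor, with 11287, 15263 and 8427 with late IL-10, 2932, 3554 and 2602 with LPS alone, and 2642, 2897 and 2531 in untreated cells. It was higher by 2.08 against untreated cells (adjusted p = 3.48e-07) and by 1.91 against LPS alone (adjusted p = 7.66e-06). Dusp1, a MAP kinase phosphatase gene, was higher by 1.501 and 1.441 in the same 2 comparisons (adjusted p = 1.77e-04 and 0.00148), and Il4ra, an IL-4 receptor subunit gene, by 1.12 and 1.59 (adjusted p = 1.45e-04 and 3.72e-05). At Il1rn, the IL-1 receptor antagonist gene, both steps were visible: 19617, 25833 and 8721 with late IL-10, 7638, 8070 and 2049 with LPS alone, and 1723, 2099 and 991 in untreated cells. The late IL-10 values were higher by 3.42 against untreated cells (SE 0.25) and by 1.71 against LPS alone (adjusted p = 3.44e-04). Slamf1, a receptor gene of macrophages and lymphocytes, had 2571, 2460 and 584 with late IL-10, 480, 444 and 30.1 with LPS alone, and 2.83, 5.04 and 1.67 in untreated cells, at least 196-fold higher than in untreated cells and 3.04 higher than with LPS alone (adjusted p = 0.00109). Jak1 and Sbno2 were called against LPS alone and not against untreated cells. Jak1, the kinase gene, had 4500, 5782 and 3261 with late IL-10, 1354, 1785 and 1548 with LPS alone, and 3647, 3627 and 3751 in untreated cells, 1.501 above LPS alone (adjusted p = 1.53e-04) and 0.26 from untreated cells with an interval of -0.18 to 0.69. The receptor genes Il10ra and Il10rb differed from untreated cells by -0.09 and 0.08 (adjusted p = 0.70 and 0.775).

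Il10 itself, which these animals cannot make as protein, had 5051, 4357 and 1648 with late IL-10, 1769, 1912 and 758 with LPS alone, and 1176, 1645 and 1002 in untreated cells. It was higher with late IL-10 by 1.41 (SE 0.26, adjusted p = 3.18e-04) against untreated cells and by 1.27 against LPS alone (adjusted p = 0.00426). The sources used here do not say which bases the mutant allele lacks. Cd163, a scavenger receptor gene of IL-10-treated macrophages, was lower than in untreated cells by -0.96 (adjusted p = 0.00678), a call lost without untreated replicate 2 (adjusted p = 0.0515) and with no replicate block (adjusted p = 0.124).

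**Figure D4:**
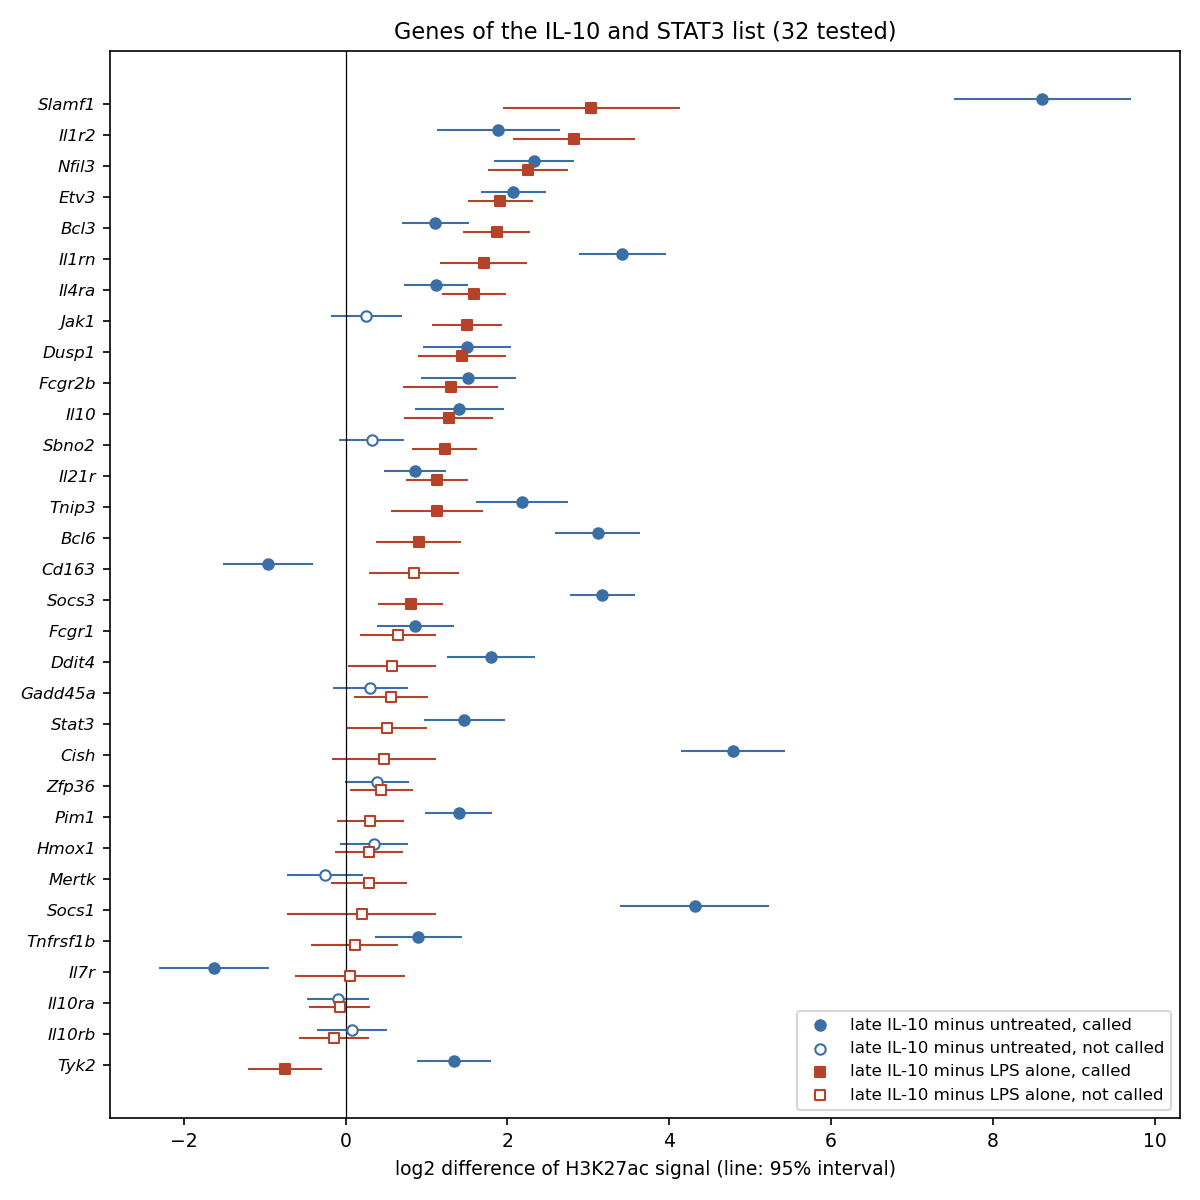
Log2 differences with 95% intervals for the 32 tested genes of the IL-10 receptor and STAT3 list, late IL-10 minus untreated (blue circles) and late IL-10 minus LPS alone (red squares); filled symbols were called at an adjusted p under 0.05. The difference from LPS alone is called higher at 16 genes, with 3.04 at Slamf1 and 2.26 at Nfil3, while Tyk2 is the gene called lower.

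Immediate early genes and MAP kinase feedback genes, which respond within minutes of a stimulus, were called in both directions. Of 30 tested, 11 were higher and 9 lower (5 lower without late IL-10 replicate 3 and 4 with no replicate block), with a median of 0.20, beside 20.8% higher and 26.4% lower over all genes. Dusp2 and Dusp16, phosphatase genes that shut off MAP kinases, were higher by 5.06 and 4.14, Gadd45b by 2.05, and Fosl2 by 2.33. Fosl2 and Dusp16 were also higher than with LPS alone, by 1.46 (adjusted p = 3.36e-04) and 1.33 (adjusted p = 0.00249). Fosb, an AP-1 subunit gene, had 8.81, 55.5 and 46.1 with late IL-10, against 505, 570 and 894 in untreated cells, a log2 difference of -4.43 (SE 0.71, adjusted p = 1.10e-04). Egr1 was lower by -3.16 (adjusted p = 0.02), a call lost without untreated replicate 1 (adjusted p = 0.0505) or replicate 2 (adjusted p = 0.0827). Dusp6 and Btg2 were lower by -1.57 and -0.92.

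At Fos the gene sum hid opposite changes. The sum had 3924, 4485 and 4708 with late IL-10, against 3721, 4330 and 6103 in untreated cells, a log2 difference of -0.08 (95% interval -0.48 to 0.31, adjusted p = 0.744). In mm10 coordinates, the region over its own start at chr12:85461488-85477339 averaged 225 with late IL-10, against 1268 in untreated cells, -2.61 (adjusted p = 4.35e-04), and the region on its left at chr12:85415400-85459825 was lower by -1.42. The regions on its right, at chr12:85482990-85499557 and chr12:85505568-85537135, were higher by 1.02 (adjusted p = 0.0128) and 1.35 (adjusted p = 7.47e-05). Such genes were common: of 7874 genes with at least 2 tested regions, 1483 (18.8%) had regions called in both directions, and for 745 of these the gene sum was not called. Maf, a transcription factor gene of resident macrophages, is another. Its sum of 2541, 3662 and 2159 with late IL-10, against 8385, 10118 and 7464 in untreated cells, was lower by -1.66 (SE 0.17, adjusted p = 1.51e-06), with 4 regions beyond 1 end of the gene that were lower by fitted differences of -2.77 to -4.43. The region over Maf itself, at chr8:115694843-115710908, differed by -0.14 (adjusted p = 0.61), and 2 regions on the other side were higher by fitted differences of 3.65 and 4.53.

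Macrophage lineage factors were called in both directions. Of 20, 5 were higher and 9 lower, or 3 and 7 with no replicate block, with a median of -0.34, beside 20.8% higher and 26.4% lower over all genes. Tfeb, a lysosomal gene regulator, had 576, 681 and 1883 with late IL-10, against 4171, 3952 and 7824 in untreated cells, -2.48 (SE 0.24, adjusted p = 7.02e-07), and it was lower than with LPS alone by -1.03 (adjusted p = 0.0119). Fli1 and Hhex were lower by -1.32 and -1.31, and Irf8, a factor of monocyte and macrophage differentiation, by -1.13. Ets2 was higher by 3.45 (SE 0.25), Mitf by 1.21 and Cebpb, a C/EBP factor gene induced by LPS, by 1.20, the last with 0.30 and no call after quantile normalization (adjusted p = 0.236). Tfec was higher by 1.53 (adjusted p = 6.01e-05), not called with no replicate block (adjusted p = 0.095).

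Of 37 surface and lysosome genes of macrophage identity, 20 were lower and 8 higher (4 higher without untreated replicate 1), with a median of -0.65. The number lower was 14 to 19 when 1 library was left out, 14 with no replicate block and 16 with median centring. Macrophage markers were high in both groups, with the summed level of the list between 115312 and 159211 with late IL-10, against 148725 to 189757 in untreated cells. Csf1r, the M-CSF receptor gene, had 2952, 3092 and 4151 with late IL-10, against 7234, 7365 and 9763 in untreated cells, -1.26 (SE 0.17, adjusted p = 2.34e-05); its region also reaches Pdgfrb and Hmgxb3. Trem2, a lipid-sensing receptor gene, had 403, 627 and 1041 with late IL-10, against 2206, 2429 and 3723 in untreated cells, -2.08 (SE 0.25, adjusted p = 6.07e-06). The groups did not overlap at either gene. Cd300a, an inhibitory receptor gene, was lower by -2.10, Gpnmb by -2.06 and Ctsd, the cathepsin D gene, by -1.76. Those higher included Itgax, the CD11c gene, by 2.61, and Msr1, a scavenger receptor gene, by 1.89. Adgre1, the F4/80 gene, differed from untreated cells by -0.48 (adjusted p = 0.0568). Against LPS alone, 8 of the 37 were higher and 5 lower, beside 6.73% and 3.01% of all genes.

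Nuclear receptor and lipid genes were mostly lower or not called: 13 of 27 were lower and 3 higher, with a median of -0.29. The number lower was 9 to 11 when 1 library was left out and 10 with no replicate block. Rxra, the common partner of many nuclear receptors, had 229, 231 and 1131 with late IL-10, against 5719, 3289 and 7283 in untreated cells, -3.72 (SE 0.43, adjusted p = 1.83e-05). Nr1d1, a circadian repressor gene, was lower by -2.66, Apoe, which carries lipid out of macrophages, by -1.81, and Fabp5 by -1.78. Pparg, a lipid-sensing receptor gene of resting macrophages, had 2425, 2390 and 1992 with late IL-10, 866, 958 and 854 with LPS alone, and 4506, 5061 and 3361 in untreated cells. The 3 groups did not overlap, with late IL-10 lower than untreated by -0.91 (SE 0.24, adjusted p = 0.00477) and higher than LPS alone by 1.34 (interval 0.84 to 1.84, adjusted p = 0.00133). The region on its left at chr6:115305612-115347028 averaged 1529 with late IL-10, 407 with LPS alone and 2162 in untreated cells, while the last region on its right, at chr6:115501306-115507171, averaged 1.48, 16.5 and 265 in the same order, at least 59.7-fold lower with late IL-10 than in untreated cells. The 3 higher genes were Ch25h, whose enzyme makes 25-hydroxycholesterol, by 5.63, Lpl, the lipoprotein lipase gene, by 2.95, and Acsl1 by 2.40; Acsl1 was not called from regions overlapping the gene alone, where it differed by 0.22 (adjusted p = 0.433).

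Of 20 genes of glycolysis and hypoxia, 11 were higher and 1, Ldha, was lower, with a median of 0.77. The number higher was 6 without late IL-10 replicate 2, 7 without untreated replicate 1, 6 without untreated replicate 2 and 7 with no replicate block. Pfkfb3, which drives glycolytic flux, had 10170, 8941 and 6582 with late IL-10, against 3771, 2448 and 3062 in untreated cells, 1.47 higher (SE 0.19, adjusted p = 1.04e-05), and it was the gene of the list called higher than with LPS alone, by 1.08 (adjusted p = 0.00113). Hif1a, the hypoxia-inducible factor gene, had 3586, 3802 and 2904 with late IL-10, against 1287, 1214 and 1701 in untreated cells, 1.30 higher (SE 0.20, adjusted p = 7.39e-05). Slc2a1, the gene of the main glucose importer, had 2740, 3324 and 3132 with late IL-10, against 1046, 870 and 2075 in untreated cells, and was also higher. Ldha was lower by -0.75 (adjusted p = 0.0198), a call lost without late IL-10 replicate 1 or 3 or untreated replicate 1 (adjusted p = 0.0861, 0.066 and 0.113) and with no replicate block (adjusted p = 0.0981).

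Of 27 cell cycle genes, 7 were higher and 11 lower (6 lower without untreated replicate 1 and 5 with no replicate block), with a median of -0.60, beside 20.8% higher and 26.4% lower over all genes. Mcm2, a replication licensing gene, had 49.3, 145 and 322 with late IL-10, against 1137, 1146 and 1690 in untreated cells, -3.29 (SE 0.44, adjusted p = 2.52e-05), and E2f2, a gene of the E2F family, was lower by -2.97. The gene sums of the cyclins D1 and D2 parted. Ccnd1 was lower by -2.01, though 2 of its regions were called higher and 2 lower. Ccnd2 had 3770, 2503 and 863 with late IL-10, against 2.12, 3.78 and 1.26 in untreated cells, at least 332-fold higher. Cdkn1a, the p21 gene, was higher by 1.11 and Pcna, the sliding clamp gene, by 1.29.

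Of 16 transporter genes, 4 were higher and 5 lower, shares near those over all genes. Slco2b1 had 17.6, 3.58 and 25.7 with late IL-10, against 3634, 3172 and 1967 in untreated cells, -7.75 (SE 0.73, adjusted p = 5.26e-07). Slc9a9, an endosomal sodium-proton exchanger gene, was lower by -3.39. Slc39a14, a zinc and iron importer gene, was higher by 3.74 and Slc7a11, the cystine importer gene, by 2.55. Housekeeping genes had 4 higher and 5 lower of 18, shares near those over all genes, with a median of -0.16. Actb had 6359, 5984 and 6269 with late IL-10, against 4183, 4260 and 7443 in untreated cells, a difference of 0.28 that was not called (adjusted p = 0.253). B2m, which interferon induces, was higher by 1.29 and Polr2a lower by -1.35. The housekeeping counts were 2 to 5 in each direction when 1 library was left out.

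Markers of other cell types, some of which macrophages also express, were called in both directions. Of 12 T cell markers, 8 were tested, with 5 higher and 3 lower and a summed level of 1609 to 2589 with late IL-10, against 1800 to 2516 in untreated cells; Trac, Cd3g, Cd8a and Zap70 had no tested region. Cd3e had 70.4, 64.5 and 35.4 with late IL-10, against the floor in untreated cells, at least 23.8-fold higher, and Cd4 had 3.52, 3.58 and 28.3, against 406, 242 and 184 in untreated cells. Of 8 B cell markers, 5 were tested and 1, Blnk, was lower, a call lost with no replicate block (adjusted p = 0.142), with sums of 2747 to 5493 with late IL-10, against 5317 to 6274 in untreated cells. Of 12 neutrophil markers, 7 were tested, with 2 higher (Camp and Csf3r) and 1 lower (Ltf) and sums of 9483 to 10398 with late IL-10, against 5215 to 8408 in untreated cells. Against LPS alone 4 neutrophil markers were higher (Elane and Prtn3, which have the same values, Mmp8 and Csf3r) and 1, Ltf, was lower, and the sum with LPS alone was 4898 to 5811. Of 10 dendritic cell markers, 9 were tested, with Ccr7 higher by 7.69 and Flt3 and Siglech lower by -6.52 and -4.94; their sums were 11262 to 21970 with late IL-10, against 13851 to 17892 in untreated cells. Of 9 fibroblast markers, 5 were tested, with 3 higher and 1, Pdgfrb, lower. Their sums were 8614 to 18363 with late IL-10, against 8230 to 11000 in untreated cells. Pdgfrb shares the region of Csf1r described above, and that region makes up most of the untreated sums. Dcn was at least 383-fold higher, but its large regions lie up to 72396 bp from the gene. Of 10 erythroid and mast cell markers, 3 were tested, with 1 higher and 1 lower and sums of 156 to 276 with late IL-10, against 127 to 342 in untreated cells. The part of other cells in the results was not tested.

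MicroRNAs, which repress target mRNAs through the seed at bases 2 to 8, have their hairpins inside many of the regions. Of 1005 hairpins in the RefSeq table, 235 lay in a tested region, 61 of them in a region that was higher with late IL-10 (25.96%) and 68 in one that was lower (28.9%), near the background of 25.3% and 26% of regions. A list of 24 microRNA genes of macrophages, drawn up after the files had been seen, had 15 in tested regions. Of these, 8 lay in regions that were higher and 3 in regions that were lower. The mature strands below belong to them, with the seed in capitals; miR-221 and miR-222 share 1 seed and 1 region, and let-7e and miR-125a share a region but not a seed.
miR-155-5p: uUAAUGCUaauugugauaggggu
miR-221-3p: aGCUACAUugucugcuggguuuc
miR-222-3p: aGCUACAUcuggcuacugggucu
miR-125a-5p: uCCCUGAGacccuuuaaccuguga
let-7e-5p: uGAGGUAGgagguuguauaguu
miR-21a-5p: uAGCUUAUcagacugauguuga
miR-146b-5p: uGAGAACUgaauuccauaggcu
miR-9-5p: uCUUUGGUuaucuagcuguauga
miR-223-3p: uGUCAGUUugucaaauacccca
miR-33-5p: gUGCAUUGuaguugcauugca
The Mir155 region, described above at Mrpl39, had the largest rise of the list. The Mir221 and Mir222 region at chrX:19141034-19147094 had 106, 254 and 59.3 with late IL-10, against 21.2, 1.26 and 0.419 in untreated cells, 4.83 higher (SE 0.77, adjusted p = 1.60e-04). The Mirlet7e and Mir125a region at chr17:17824677-17833272 had 1085, 767 and 1222 with late IL-10, against 107, 98.3 and 288 in untreated cells, 2.79 higher (SE 0.32, adjusted p = 1.14e-05). In both regions every late IL-10 value lay above every untreated one. The Mir21a region, a broad one at chr11:86567122-86639770, was higher by 1.40 (SE 0.20, adjusted p = 7.59e-05), the Mir146b region by 1.18 (SE 0.28, adjusted p = 0.00296), and the Mir9-1 region, at low levels, by 3.98 (SE 0.88, adjusted p = 0.00184).

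Of the 3 lower regions, Mir33, which lies inside the sterol regulator gene Srebf2, had 1.76, 1.79 and 0.886 with late IL-10, against 74.2, 17.6 and 32.2 in untreated cells. The late IL-10 libraries were at the floor there, at least 9.32-fold lower (fitted log2 difference -3.88, SE 0.75, adjusted p = 7.1e-04). The Mir223 region, whose microRNA is abundant in myeloid cells, had 433, 1048 and 399 with late IL-10, against 1185, 2799 and 741 in untreated cells, -1.25 (SE 0.29, adjusted p = 0.00272). These groups overlap, as late IL-10 replicate 2 lay above untreated replicate 3, and with no replicate block the call was lost (adjusted p = 0.11). The Mir27a region was lower by -0.53 (adjusted p = 0.0419), a call that held without 1 of the 6 libraries only. None of the 15 was called between late IL-10 and LPS alone by limma; the smallest adjusted p was 0.109, at Mir9-1. H3K27ac at a hairpin's region says nothing of the level of the mature microRNA, which was not measured.

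**Figure D5:**
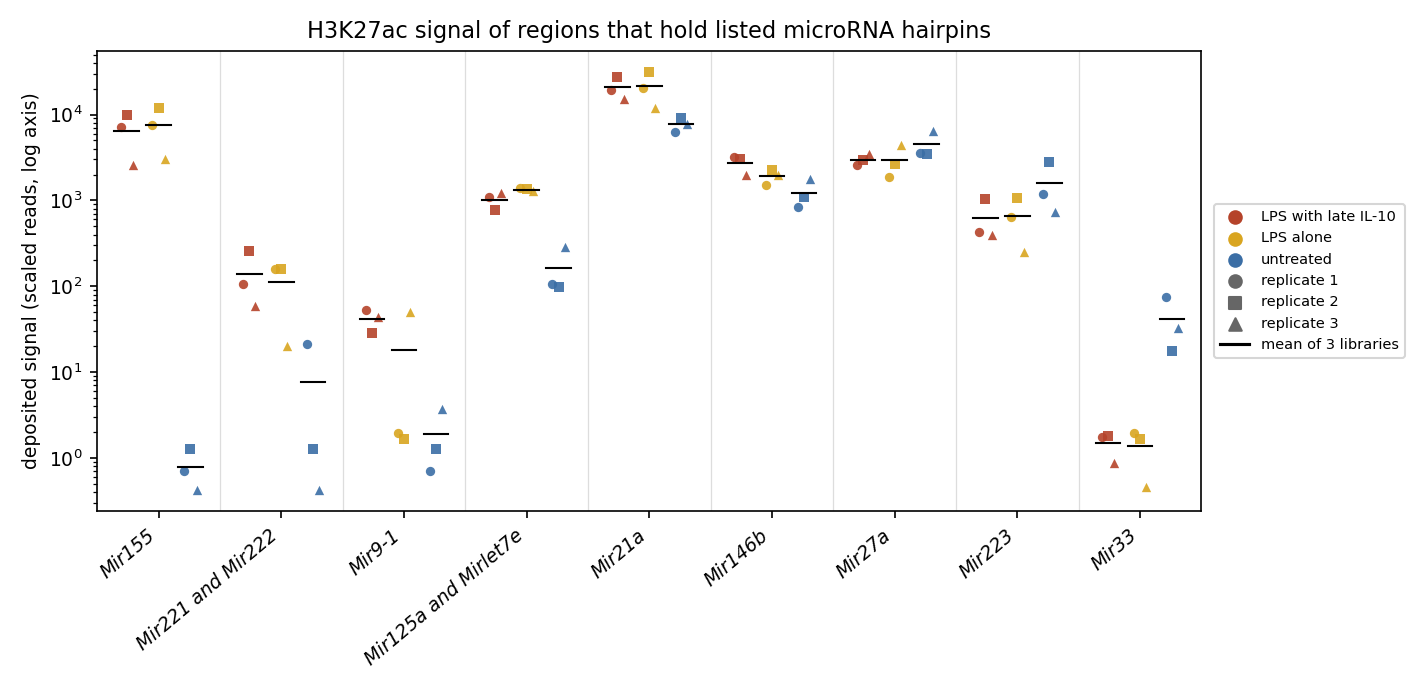
Deposited signal (log axis) in each library of LPS with late IL-10, LPS alone and untreated cells at the 9 called regions that hold listed microRNA hairpins. The Mir155 region lies between 2561 and 9750 with late IL-10, against 0.419 to 1.26 in untreated cells, while the Mir33 region is at 0.886 to 1.79 with late IL-10, against 17.6 to 74.2 in untreated cells.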

How the data were processed

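H3K27ac ChIP-seq was measured in 12 libraries, 3 in each of 4 groups. The authors deposited 1 table of consensus regions whose values are signal: whole numbers of reads times 1 factor per library, never below 1 read. All values are whole multiples of that step within a tolerance of 0.0001. The build mm10 and the tools DiffBind, MACS2, Bowtie2 and Trim Galore are named per the submitters' processing notes; their roles and versions, and whether input was subtracted, were not given in those sources.

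Regions were assigned to every protein-coding gene they overlap, otherwise to the nearest within 100 kb, so neighbouring genes can share regions. A start site region lies within 1 kb of a gene's start. Regions or genes with a mean log2 value at or under the 10th percentile over the 12 libraries were left out. Differences were fitted on log2(value + 1) with limma 3.58.1 (R 4.3.3) on all 12 libraries, with group and replicate number as terms, Benjamini-Hochberg adjusted over all regions or genes tested, and checked on simulated data. A test of counts had been planned; the values are scaled, so limma was used, and edgeR 4.0.16 and DESeq2 1.42.0 ran on the recovered reads as alternatives. Other alternatives were the pseudocount, the filter, centring, quantile normalization, leaving out each library and scoring genes from overlapping regions alone. Fits without the replicate block and of the 6 libraries alone were also run. A common floor of 3 reads was tried too, chosen after seeing the data. P-values measure the spread left over all 12 libraries once group and replicate number are fitted, and those libraries come from only 3 pools. An exact permutation test of 3 against 3 that ignores the pairing cannot go below p = 0.1.

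The replicate number is treated as the macrophage pool because the design names 3 independent pools. Late IL-10 and untreated libraries of the same number deviated together, with correlations of 0.134 to 0.429 over the 3 pairs. Library pairs of different numbers, over all groups, ranged from -0.58 to 0.37. Late IL-10 replicate 1 with untreated replicate 2 stood at 0.165, above the 0.134 of both replicates 1. Some other pairs of a replicate 1 with a replicate 2 also stood above 0.134. The highest was 0.370, for continuous IL-10 replicate 1 with late IL-10 replicate 2. Others stood below, such as untreated replicate 1 with LPS alone replicate 2 at 0.090.

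The members and gene lists were chosen with earlier results of these data known. Named regions are the 6 with the largest difference and the 6 with the smallest p in each direction that overlap a gene and do not overlap between groups. Named genes are the 4 with the smallest adjusted p per list and direction and a set of key genes. Others, among them Etv3, Dusp1, Il4ra, Jak1, Sbno2, Lif, Tlr4 and the microRNAs, were chosen after their values were seen.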

Additional observations from a re-analysis of the deposited data

How the results depend on the processing

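The numbers of regions and genes called in each direction stayed within 1.5 times the reported counts under each alternative run, with 1 exception. Without the replicate block, which drops the pairing by macrophage pool, 2075 genes were lower with late IL-10 in place of 3557, and 2113 were higher in place of 2800. Leaving out 1 library gave 7384 to 8969 regions higher and 7328 to 8596 lower, and 2209 to 3137 genes higher and 2568 to 3220 lower. On the recovered reads, edgeR called 9700 regions higher and 8882 lower, and DESeq2 10680 and 9144. Scored from overlapping regions alone, 2371 genes were higher and 3089 lower, which held 82.0% and 83.9% of the reported calls. Median centring moved the median over all regions from -0.11 to 0.12. Fos, at -0.08 and not called, changed sign with DESeq2 (0.10), edgeR (0.077) and median centring (0.062), and ranged from -0.15 to 0.040 when 1 library was left out, being above 0 without untreated replicate 3. Actb, at 0.28 and not called, changed sign with quantile normalization (-0.13) and was called higher without untreated replicate 3. None of the changed signs was called, and the cause was not tested. Depth limits the regions at the floor, whose folds are bounds only.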
